A study of Mus musculus with 27 samples.

Results

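Liver RNA was examined for 9 genes of the insulin signalling pathway in mice kept on 4 diets. They were Insr, Irs1, Irs2, Pik3r1, Akt1, Akt2, Foxo1, Foxo3 and Slc2a4, textbook members of the pathway, chosen by name but with earlier results of these data known. They were 9 of 18820 genes with a value on the arrays. Where a gene had more than 1 probe set (a group of probes for 1 transcript region), that of the highest mean was used, and all 9 genes passed the study's intensity minimum (above 20 on 5 or more arrays), as did 13603 genes in all. The study asked how weekly alternation between surplus and restricted food acts on the liver of ageing mice. All mice were male C57BL/6J, began their diet at 9 weeks of age and were killed at 12 months, and each gave 1 array. Intermittently fed mice (INT, 7 mice) alternated each week between free access to a moderate-fat diet and 40% restriction, and they were killed in a week of free access. Calorie-restricted mice (CR, 6 mice) were given portions set at 30% less energy than the mean intake of the controls. By the paper's supplement their measured energy intake, relative to the controls, was lower still. Moderate-fat mice (MF, 7 mice) had free access to a diet with 25% of its energy from fat, and control mice (C, 7 mice) had free access to the AIN-93W diet. All 4 groups had fasted for 4 h, received 0.5% carboxymethylcellulose by gavage as a mock treatment and fasted for a further 6 h before death, so that every level below is that of a fasted, mock-treated male liver. By the paper's methods CR-fed mice received a portion each day at a set hour, whereas the other groups had free access before the fast. The time since the last meal may thus have differed between CR-fed mice and the others, and its part in the results was not tested.

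Insulin binds its receptor on the cell surface, and the receptor phosphorylates the adaptors IRS1 and IRS2. These recruit PI3-kinase, whose lipid product leads to activation of AKT, and AKT in turn phosphorylates FOXO factors and keeps them out of the nucleus. In hepatocytes this chain restrains glucose output and turns on fatty acid synthesis, while in muscle and fat it brings the glucose transporter GLUT4, encoded by Slc2a4, to the cell surface.

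The values are log2 intensities, so that a difference of 1 is a doubling, and they were read from 27 arrays whose medians lay between 5.21 and 5.27. Arrays carry no read depth, and the number of mice limits the precision. Pearson's r between arrays ranged from 0.982 to 0.992. The arrays of replicates 1 to 4 (16 arrays) had interquartile ranges of 3.59 to 3.70, and those of replicates 5 to 7 (11 arrays) of 3.64 to 3.76. Both sets hold every diet, but the second holds only 2 CR-fed mice, and values within each set are given beside the results. The labels do not say whether the sets were run apart. All 7 hepatocyte markers, among them Alb and Ttr, were above the minimum, and their summed level was 15.79 to 15.97 in INT-fed, 15.97 to 16.05 in CR-fed, 15.77 to 15.94 in MF-fed and 15.85 to 16.00 in C-fed mice. Of the 7, Cps1 and Tat were called higher and Cyp2e1 lower in CR-fed mice than in each other diet, by 0.47, 0.67 and -0.15 in CR over MF. The samples are whole liver, in which fewer cells of a type and less RNA per cell cannot be told apart.

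Promoters, taken as 250 bases before and 50 after a start site, were at hand in RefSeq (build GRCm38.p6) for 7 of the 9 genes, with 12 start sites between them. Insr and Slc2a4 had none, so that the member of widest difference could not be examined. Stretches are shown for Irs1, Irs2 and Akt1 because only these held a sequence that was looked for. Neither promoter of Pik3r1 held any. Capitals mark the E-box CACGTG, a palindrome and so the same on both strands, with 30 bases on each side.
Irs1: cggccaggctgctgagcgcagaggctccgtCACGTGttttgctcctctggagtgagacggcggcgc
Irs2: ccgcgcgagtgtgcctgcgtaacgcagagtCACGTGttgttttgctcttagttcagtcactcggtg
The Irs1 stretch is chr1:82291519-82291584 and the Irs2 stretch chr8:11008938-11009003, both on the minus strand. The E-box began 115 bases before the start site of Irs1 and 44 before that of Irs2. The run gtCACGTGtt, 10 bases, was common to both stretches. No common run was longer, but another, lying mostly outside the E-box, was as long. Of 32851 promoters of this length, 7.15% hold the E-box, and of the 12 promoters of the members 2 did. The FOXO-binding letters TGTTTAC, or GTAAACA on the other strand, stood in 1 of the 12, the first start site of Akt1, beginning 161 bases before it, and in 3.65% of all promoters.
Akt1: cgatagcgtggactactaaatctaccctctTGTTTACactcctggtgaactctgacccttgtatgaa
This stretch is chr12:112675009-112675075 on the minus strand, with TGTTTAC in capitals. The cyclic AMP response element TGACGTCA, also a palindrome, was in none of the 12 windows and in 1.79% of all promoters. A match of letters is a description of the window and shows no binding.

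CR-fed mice stood apart in 3 of the 9 genes: Slc2a4 and Irs2 were called higher and Pik3r1 lower than in each other diet. Irs1 was called higher in CR-fed than in MF-fed mice only, and INT over CR was -0.06 for it (adjusted p = 0.859). The diets were compared by limma over all 27 arrays, and genes whose p, adjusted by Benjamini-Hochberg for 13603 tests, was under 0.05 were called. Between INT- and CR-fed mice 3 of the 9 members were called, 1 higher (Pik3r1) and 2 lower (Irs2, Slc2a4), where 15.0% of all genes were called, 8.37% higher and 6.62% lower. Between CR- and MF-fed mice 4 members were called, 3 higher (Irs1, Irs2, Slc2a4) and 1 lower (Pik3r1), against 19.8% of all genes, 8.57% higher and 11.2% lower. Between CR- and C-fed mice 3 were called, 2 higher (Irs2, Slc2a4) and 1 lower (Pik3r1), against 17.5% of all genes, 8.46% higher and 9.05% lower. These 3 comparisons share the 6 CR-fed mice, so that they are not independent of each other. The members were chosen with earlier results of these data known, so that the counts describe these 9 genes only. The median log2 fold change of the 9 members was -0.06, 0.17 and 0.11 in the same 3 comparisons, and that of all genes lay within 0.01 of 0 in each.

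**Figure D1:**
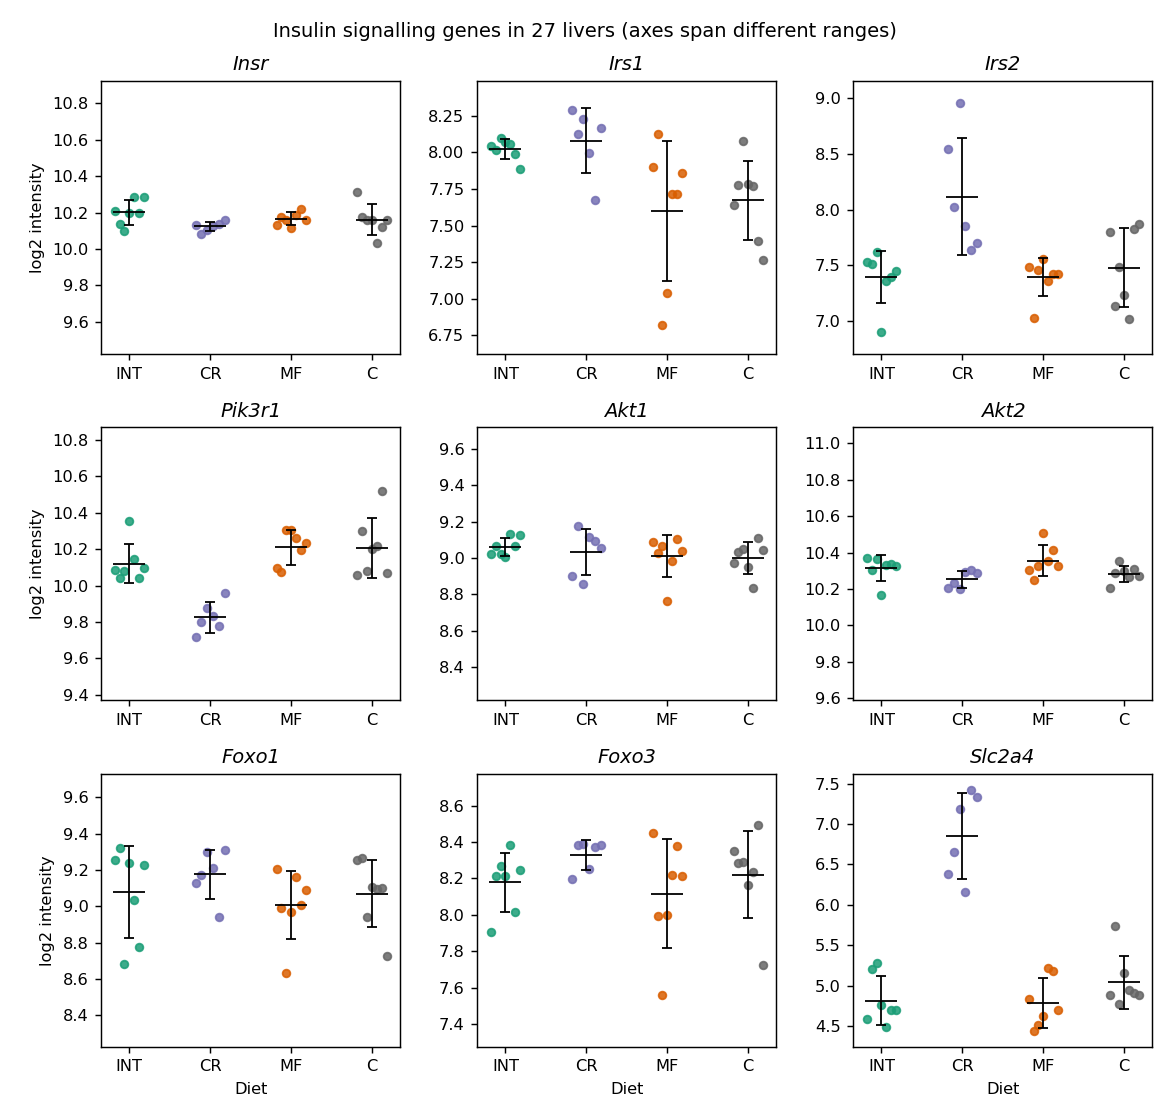
Log2 intensity (vertical axes, spanning different ranges) of the 9 genes in each of the 27 livers by diet (INT, CR, MF and C from left to right); points are livers, and black bars are the mean and SD. Slc2a4 in the 6 CR-fed mice (6.16 to 7.42) lies above every other liver, and Pik3r1 in the same mice (9.72 to 9.96) lies below every other liver.

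The receptor gene Insr (chr8:3150922-3279649) encodes the receptor tyrosine kinase itself. Its log2 intensity was 10.20 ± 0.07 in INT-fed, 10.12 ± 0.03 in CR-fed, 10.16 ± 0.04 in MF-fed and 10.16 ± 0.08 in C-fed mice (SD, n = 7, 6, 7 and 7). All 4 diets overlapped, and no comparison passed the test. The 95% interval of CR over C was -0.13 to 0.05 on the log2 scale, and that of INT over CR was -0.01 to 0.17 (adjusted p = 0.264). A second probe set of Insr followed the first with r = 0.68 over the 27 livers.

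Irs1 (chr1:82233105-82291439), the adaptor first found as the main substrate of the receptor, had higher means in INT- and CR-fed than in MF- and C-fed mice. It spread most widely in MF-fed mice, and about alike in CR- and C-fed mice. Its lowest, median and highest log2 intensities were 7.89, 8.04 and 8.10 in INT-fed mice and 7.67, 8.15 and 8.29 in CR-fed mice. They were 6.82, 7.72 and 8.12 in MF-fed mice and 7.26, 7.77 and 8.07 in C-fed mice. The INT-fed mice formed the tightest group, all 7 of them above the MF median, whereas 2 MF-fed mice, at 6.82 and 7.04, lay below every other liver. The means were 8.02 ± 0.07 in INT-fed, 8.08 ± 0.22 in CR-fed, 7.60 ± 0.48 in MF-fed and 7.67 ± 0.27 in C-fed mice (SD). CR over MF was 0.48 for Irs1 (SE 0.16, adjusted p = 0.0303), with 4 of the 6 CR-fed mice above every MF-fed mouse. This call was lost when any 1 of 6 mice was left out (CR replicates 1, 2, 3 and 6 and MF replicates 3 and 4), with an adjusted p of up to 0.0771, and also with only these 2 diets in the fit (adjusted p = 0.0963). Within replicates 1 to 4 the difference was 0.69 (adjusted p = 0.04), and within replicates 5 to 7 it was 0.16 (adjusted p = 0.723). CR over C was 0.41 (SE 0.16, adjusted p = 0.075), not called. INT over MF was 0.43 (SE 0.15, 95% interval 0.11 to 0.74, adjusted p = 0.365) and INT over C 0.35 (SE 0.15, 95% interval 0.04 to 0.66, adjusted p = 0.677), neither called.

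Irs2 (chr8:10984681-11008929), the IRS adaptor known in liver for its rise during fasting, was highest in CR-fed mice. It reached 6.91, 7.45 and 7.62 as the lowest, median and highest log2 intensity in INT-fed mice and 7.63, 7.94 and 8.95 in CR-fed mice. It reached 7.03, 7.43 and 7.56 in MF-fed mice and 7.02, 7.48 and 7.87 in C-fed mice. The CR-fed mice did not overlap with INT- or MF-fed mice, although the lowest CR-fed mouse was barely above the highest INT-fed mouse, and 3 of 6 lay above every C-fed mouse. Irs2 was lower in INT- than in CR-fed mice by a log2 fold change of -0.72 (SE 0.18, adjusted p = 0.00512), which is 0.607 times the CR level. CR over MF was 0.72 (SE 0.18, adjusted p = 0.00385) and CR over C was 0.64 (SE 0.18, adjusted p = 0.0116). The CR-fed mice were uneven: replicates 1 to 4 had 8.54, 8.02, 8.95 and 7.85, and replicates 5 and 6 had 7.63 and 7.70. Within replicates 1 to 4 INT over CR, CR over MF and CR over C were -0.95, 0.96 and 0.93, all called. Within replicates 5 to 7, with 2 CR-fed mice, they were -0.26 (adjusted p = 0.574), 0.26 (adjusted p = 0.598) and 0.09 (adjusted p = 0.865). Irs2 in CR-fed mice was thus higher in the first set, and this difference between the sets was not tested.

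Pik3r1 (chr13:101680761-101768217) encodes p85 alpha, the regulatory subunit that holds the catalytic subunit of PI3-kinase and docks on the IRS proteins. It was the only member called lower in CR-fed mice than in all 3 other diets. Its lowest, median and highest log2 intensities were 10.04, 10.09 and 10.35 in INT-fed mice and 9.72, 9.81 and 9.96 in CR-fed mice. They were 10.07, 10.23 and 10.31 in MF-fed mice and 10.06, 10.20 and 10.52 in C-fed mice. Every CR-fed mouse lay below every mouse of the other diets. The difference was modest in size, INT over CR being 0.29 (SE 0.07, adjusted p = 0.00347), CR over MF -0.38 (SE 0.07, adjusted p = 0.00019) and CR over C -0.38 (SE 0.07, adjusted p = 0.000231). In fold terms the CR level was 0.766 times the MF level. Within replicates 1 to 4 the same comparisons gave 0.33, -0.39 and -0.36, all called. Within replicates 5 to 7 they gave 0.23 (adjusted p = 0.4), -0.36 (adjusted p = 0.175) and -0.40 (adjusted p = 0.114), of like size but not called with 2 CR-fed mice.

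Akt1 (chr12:112653821-112674884) and Akt2 (chr7:27591552-27640826) encode the serine kinases of the pathway, AKT2 being the form most tied to glucose handling. Akt1 averaged 9.06 ± 0.05 in INT-fed, 9.03 ± 0.13 in CR-fed, 9.01 ± 0.12 in MF-fed and 9.00 ± 0.09 in C-fed mice (SD). Akt2 averaged 10.32 ± 0.07 in INT-fed, 10.25 ± 0.05 in CR-fed, 10.36 ± 0.08 in MF-fed and 10.28 ± 0.04 in C-fed mice (SD). Neither was called in any comparison, and for both genes all diets overlapped. The 95% intervals of CR over C were -0.09 to 0.16 for Akt1 and -0.12 to 0.06 for Akt2. Akt2 in CR over MF came nearest to a call, at -0.10 (SE 0.05, adjusted p = 0.12), and its second probe set, which followed the first only weakly (r = 0.33), gave 9.85 ± 0.10 in CR-fed and 9.89 ± 0.07 in MF-fed mice.

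Foxo1 (chr3:52268337-52350109) and Foxo3 (chr10:42181845-42276695) encode the transcription factors that AKT restrains, and FOXO1 is known as a driver of glucose-producing genes in fasted liver. Foxo1 averaged 9.08 ± 0.25 in INT-fed, 9.18 ± 0.13 in CR-fed, 9.01 ± 0.19 in MF-fed and 9.07 ± 0.19 in C-fed mice (SD). Foxo3 averaged 8.18 ± 0.16 in INT-fed, 8.33 ± 0.08 in CR-fed, 8.12 ± 0.30 in MF-fed and 8.22 ± 0.24 in C-fed mice (SD). Both had their highest mean in CR-fed mice, but all diets overlapped and no comparison was called. CR over MF was 0.17 (95% interval -0.05 to 0.39, adjusted p = 0.289) for Foxo1 and 0.21 (95% interval -0.03 to 0.45, adjusted p = 0.214) for Foxo3.

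Slc2a4 (chr11:69942286-69948216), the gene of GLUT4, showed by far the widest difference of the 9 members. Its lowest, median and highest log2 intensities were 4.48, 4.70 and 5.28 in INT-fed mice and 6.16, 6.92 and 7.42 in CR-fed mice. They were 4.44, 4.70 and 5.22 in MF-fed mice and 4.77, 4.91 and 5.74 in C-fed mice. The 6 CR-fed mice lay above all 21 others with a clear gap, while the other 3 diets overlapped. As intensities the means were 28.7 ± 6.49 in INT-fed, 122 ± 42.7 in CR-fed, 28.2 ± 6.24 in MF-fed and 33.7 ± 8.99 in C-fed mice (SD). INT over CR was -2.04 on the log2 scale (SE 0.19, adjusted p = 2.46e-08), the 23rd smallest p of all genes. CR over MF was 2.07 (SE 0.19, adjusted p = 1.92e-08), a 4.19-fold difference, and CR over C was 1.82 (SE 0.19, adjusted p = 1.76e-07), a 3.52-fold difference. The levels outside the CR diet stood close to the minimum, which is 4.32 on this scale, and these folds rest on values near it. The difference was present in both sets of arrays: INT over CR, CR over MF and CR over C were -1.64, 1.99 and 1.46 within replicates 1 to 4, and -2.75, 2.35 and 2.47 within replicates 5 to 7, all called.

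**Figure D2:**
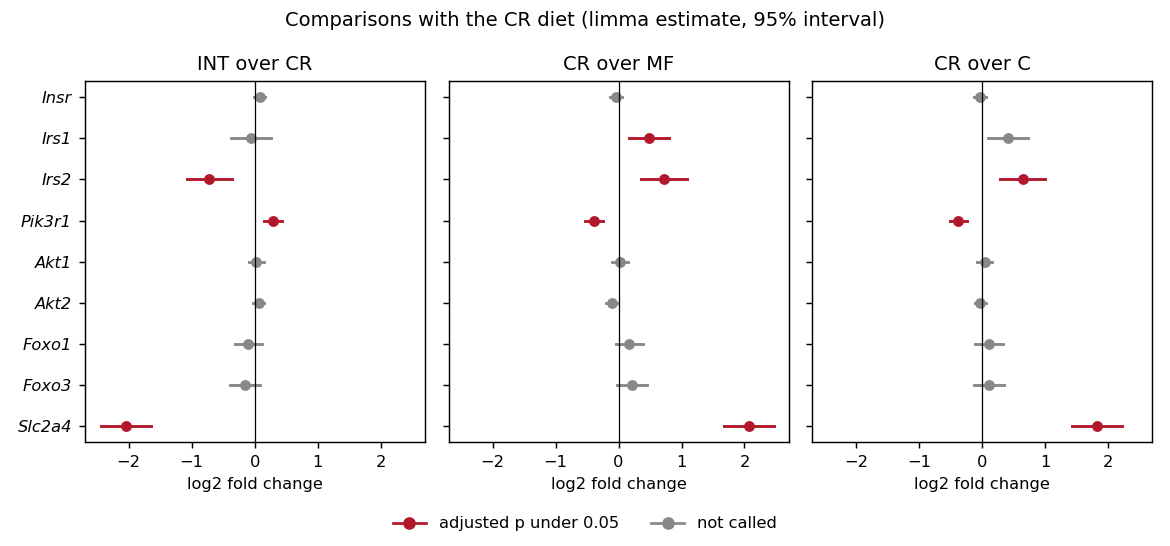
Log2 fold change (horizontal axes) of the 9 genes in INT over CR, CR over MF and CR over C; points are the limma estimates, lines their 95% intervals, and red marks an adjusted p under 0.05. Slc2a4 stands farthest from 0 in each panel (-2.04, 2.07 and 1.82), and Insr, Akt1, Akt2, Foxo1 and Foxo3 are not called in any.

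GLUT4 is best known from fat and muscle, and markers of these tissues were therefore read in the same livers. Of 7 adipocyte markers 5 had a value, and the defining genes Adipoq and Lep lay under the intensity of 20 on all 27 arrays. The other 3 passed the minimum. Plin1 was above 20 on all arrays and averaged 4.85 in INT-fed, 4.95 in CR-fed, 4.85 in MF-fed and 4.87 in C-fed mice, and Retn stood near the minimum in every diet, neither called. The lipid droplet gene Cidec, which fatty hepatocytes also express, had a log2 fold change of -3.44 in CR over MF (adjusted p = 0.000234). The summed log2 level of the 5 was 7.20 to 9.43 in INT-fed, 6.74 to 7.23 in CR-fed, 7.18 to 10.84 in MF-fed and 7.85 to 10.34 in C-fed mice. Cidec had the highest mean of the 5 in every diet (7.33 in INT-fed, 5.54 in CR-fed, 8.98 in MF-fed and 8.57 in C-fed mice). Differences in this sum are thus largely those of Cidec. Of 7 muscle markers Myh4 and Myl1 lay under 20 on all arrays, none was called in any comparison, and their summed log2 level was 7.18 to 7.44 in INT-fed, 7.09 to 7.61 in CR-fed, 7.11 to 7.47 in MF-fed and 7.17 to 7.44 in C-fed mice. Of 8 macrophage markers 5 were lower in INT- than in CR-fed mice, and 2 of 8 were higher in CR over MF. In CR over C 1 of 8, the Kupffer cell gene Clec4f, was higher. Cd68 was not called, with -0.04 in CR over MF and -0.02 in CR over C. Of all genes 15.0% were called in INT over CR, 19.8% in CR over MF and 17.5% in CR over C. The marker counts given here stand against these shares. The summed level of the macrophage markers was 11.22 to 11.82 in INT-fed, 11.85 to 12.39 in CR-fed, 11.33 to 12.01 in MF-fed and 11.58 to 12.23 in C-fed mice. None of the 8 was under 20 on all arrays. The summed level of the 3 erythroid markers with a value was 9.50 to 9.81 in INT-fed, 8.01 to 8.54 in CR-fed, 8.79 to 9.80 in MF-fed and 9.28 to 9.93 in C-fed mice, with Alas2 lower and Slc4a1 higher in CR-fed mice and the third marker under 20 on all arrays. Of 4 cholangiocyte markers Krt7 was higher in CR-fed mice than in each other diet, by 0.44 in CR over C (adjusted p = 0.00126), and Sox9 by 0.29 in CR over C (adjusted p = 0.0464), and the summed level was 7.39 to 7.81 in INT-fed, 7.57 to 7.95 in CR-fed, 7.32 to 7.82 in MF-fed and 7.30 to 7.65 in C-fed mice. Of 6 endothelial markers, Cdh5 was lower in INT over CR (-0.22, adjusted p = 0.0382), Kdr was higher in CR over MF (0.28, adjusted p = 0.00742) and CR over C (0.24, adjusted p = 0.0261), and Lyve1 was lower in CR over MF (-0.77, adjusted p = 0.0316), with summed levels of 12.02 to 12.23 in INT-fed, 12.11 to 12.26 in CR-fed, 11.99 to 12.36 in MF-fed and 12.03 to 12.20 in C-fed mice. No cholangiocyte or endothelial marker was under 20 on all arrays, and no marker of stellate cells or lymphocytes was called. The part of these markers in the results for Slc2a4, Irs1, Irs2 and Pik3r1 was not tested.

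Among the 3 diets other than CR no member was called. Between INT- and MF-fed mice, between INT- and C-fed mice and between MF- and C-fed mice 0 of the 9 members and 0 of the 13603 genes (0.00%) passed limma's adjusted threshold. At an unadjusted p under 0.05 these comparisons held 1, 1 and 0 members, the member being Irs1 both times, and 1479, 922 and 464 genes. No member separated 2 of these diets without overlap, against 0.103%, 0.257% and 0.0588% of all genes. In the comparisons with CR 3 members did so in INT over CR, 3 in CR over MF and 2 in CR over C, against 6.43%, 7.02% and 6.70% of all genes. The intervals left room for moderate differences: for Slc2a4, INT over C was -0.23 (95% interval -0.61 to 0.16) and MF over C -0.25 (95% interval -0.63 to 0.13). For Irs2, INT over C was -0.08 (95% interval -0.43 to 0.26), and for Pik3r1 it was -0.09 (95% interval -0.22 to 0.05).

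The members varied largely apart from each other once the mean of each diet was removed. Over the 27 livers Pearson's r of the 36 pairs of members ranged from -0.34 to 0.51 with a median of 0.02, and 1 pair exceeded 0.5. That pair was Foxo1 and Foxo3 (r = 0.51, Spearman's rho = 0.35), and its r was 0.47 without the 2 livers farthest from the Foxo1 median and 0.11 without the 2 farthest from the Foxo3 median, so that it rested on these livers. Irs1 had r = 0.49 with Foxo3 and r = 0.43 with Foxo1, but without the 2 livers farthest from the Irs1 median the values were 0.09 and 0.21. The 27 livers share 1 normalization, and these values are a description.

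**Figure D3:**
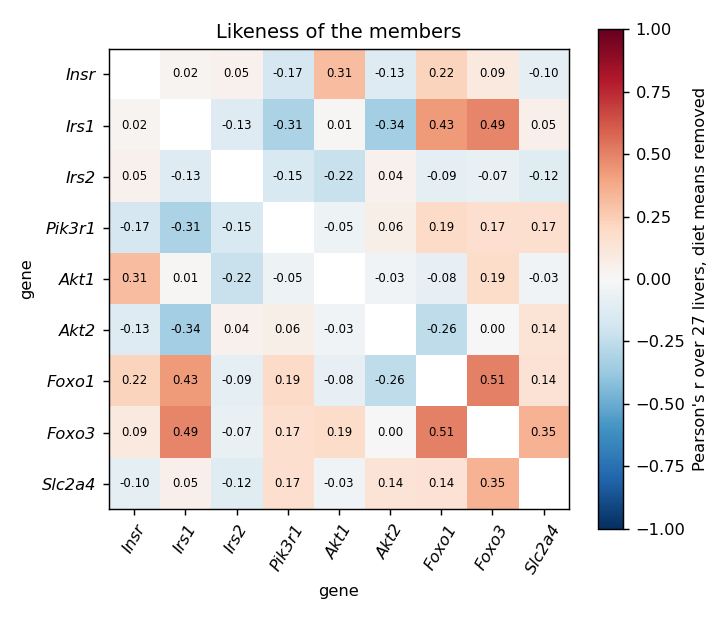
Pearson's r between each pair of the 9 genes over 27 livers after the mean of each diet was removed (colour, with the value in each cell). Foxo1 and Foxo3 have the highest value (0.51, but 0.11 without the 2 livers farthest from the Foxo3 median), and the median of the 36 pairs is 0.02.

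For the 4 called members, the 3 genes most like them were found among the other 13602 genes by the same measure. Each was picked as the highest of 13602 values, so that these r describe the 27 livers only. For Irs1 they were Bcl9l (r = 0.85), which encodes a coactivator of Wnt signalling, Lyst (r = 0.84), which encodes a regulator of lysosomal traffic, and Tmem25 (r = 0.82). Without the 2 livers farthest from the Irs1 median these values were 0.69, 0.62 and 0.56. For Irs2 they were Xlr (r = 0.73), Zfp266 (r = 0.69, but 0.39 without the 2 livers farthest from the Irs2 median) and Srpr (r = 0.67), the last for a subunit of the signal recognition particle receptor. For Pik3r1 they were Phf20l1 (r = 0.70), Ginm1 (r = 0.68) and Pphln1 (r = 0.65), and 0.51, 0.55 and 0.52 without the 2 livers farthest from the Pik3r1 median. For Slc2a4 they were Cds2 (r = 0.75), for an enzyme of phospholipid synthesis, Aspscr1 (r = 0.71), for the UBX domain protein TUG, and Hgd (r = 0.71), for an enzyme of tyrosine breakdown.

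Around the 9 members, 125 further genes of the pathway and its outputs were listed in 8 groups, and 111 of them were tested. In INT over CR 10 were higher and 19 lower, in CR over MF 23 were higher and 16 lower, and in CR over C 21 were higher and 13 lower. As a share, 26.1%, 35.1% and 30.6% of the listed genes were called, where 15.0%, 19.8% and 17.5% of all genes were, and the counts of the single groups below stand against the same shares. None was called among the other 3 comparisons. The lists were chosen with earlier results of these data known, so that these counts describe the lists only.

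Of 10 receptor relatives and adaptors, 1 was lower in INT over CR, 2 were higher and 1 lower in CR over MF, and 1 was higher in CR over C. The adaptor gene Crkl was higher in CR- than in C-fed mice by 0.22 (SE 0.06, adjusted p = 0.00805), while in CR over MF Gab1, for a docking protein, was higher by 0.30 (adjusted p = 0.0155) and Shc1 differed by -0.22 (adjusted p = 0.03). Of 20 genes that damp the receptor or PI3-kinase, 1 was called in INT over CR and 3 in each of the other 2 comparisons. Grb14, whose protein binds the active receptor and blocks it, was lower in CR- than in C-fed mice by a log2 fold change of -0.41 (SE 0.10, adjusted p = 0.00327), and Ptpn1, for a phosphatase that dephosphorylates the receptor, by -0.38 (SE 0.12, adjusted p = 0.0311). Phlpp2, for a phosphatase of AKT, was higher by 0.27 (SE 0.07, adjusted p = 0.00741).

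Of 17 PI3-kinase and AKT relatives and substrates, 2 were higher and 4 lower in INT over CR, 4 higher and 3 lower in CR over MF, and 4 higher and 2 lower in CR over C. Tbc1d1, for an AKT substrate that controls GLUT4 vesicles in muscle, averaged 6.52 ± 0.12 in INT-fed, 7.05 ± 0.07 in CR-fed, 6.65 ± 0.12 in MF-fed and 6.59 ± 0.11 in C-fed mice (SD), and INT over CR was -0.53 (adjusted p = 1.23e-06). Tbc1d4, of the same family and group, went the other way. It was 0.29 in INT over CR (adjusted p = 0.00565), -0.34 in CR over MF (adjusted p = 0.000976) and -0.29 in CR over C (adjusted p = 0.00432). Pik3c2a, for a class II PI3-kinase, and Sgk1, for a kinase related to AKT, were higher in CR- than in C-fed mice by 0.33 (adjusted p = 0.00218) and 0.49 (adjusted p = 0.000962). Prkcz, for an atypical protein kinase C, was lower, with -1.02 (SE 0.13, adjusted p = 3.83e-06).

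Of 18 genes of the mTOR branch, 3 were higher and 1 lower in INT over CR, 2 higher and 6 lower in CR over MF, and 2 higher and 5 lower in CR over C. In CR over C, Mtor itself differed by -0.35 (adjusted p = 0.00337) and Prr5, for a subunit of mTOR complex 2, by -0.64 (adjusted p = 5.41e-05). Tsc1, for a brake on mTOR complex 1, was higher by 0.40 (adjusted p = 0.000268), and Rictor, for the defining subunit of mTOR complex 2, by 0.21 (adjusted p = 0.0136). Of 9 tested genes of the RAS and ERK branch, Spry4, for an inhibitor of that branch, was the only one called in any comparison, at -0.61 in CR over C (adjusted p = 0.0186).

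**Figure D4:**
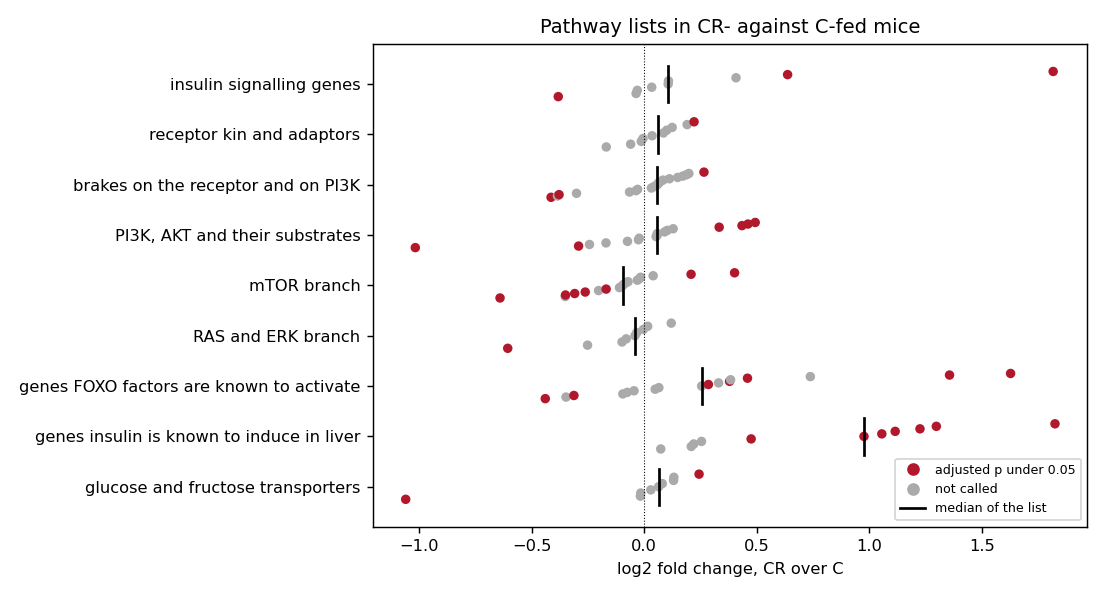
Log2 fold change of CR over C (horizontal axis) for each tested gene of the 9 members and of 8 further groups of pathway genes; each point is a gene, red marks an adjusted p under 0.05, and black bars are group medians. The genes that insulin is known to induce have the highest median (0.98), and the 9 members have a median of 0.11.

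Among the outputs of the pathway, of 11 tested genes that insulin is known to induce in liver, 9 were lower in INT over CR, 7 higher in CR over MF and 7 higher in CR over C, with none called the other way and medians of -1.01, 0.95 and 0.98. Acly, for the enzyme that makes cytosolic acetyl-CoA, averaged 9.83 ± 0.50 in INT-fed, 11.63 ± 0.26 in CR-fed, 9.66 ± 0.24 in MF-fed and 9.80 ± 0.46 in C-fed mice (SD). The fatty acid synthase gene Fasn was higher in CR- than in C-fed mice by 1.30 (SE 0.15), the elongase gene Elovl6 by 1.05 (SE 0.16) and the acetyl-CoA carboxylase gene Acaca by 1.11 (SE 0.15), with adjusted p-values of 7.54e-07, 3.14e-05 and 5.52e-06. Of 17 genes that FOXO factors are known to activate, 3 were higher and 4 lower in INT over CR, 7 higher and 3 lower in CR over MF, and 5 higher and 2 lower in CR over C. Ppargc1a, for a coactivator of glucose production, averaged 8.19 ± 0.11 in INT-fed, 9.98 ± 0.13 in CR-fed, 7.93 ± 0.53 in MF-fed and 8.35 ± 0.28 in C-fed mice (SD), and Igfbp1, a secreted binding protein that insulin represses, averaged 9.04 ± 0.50 in INT-fed, 11.01 ± 0.34 in CR-fed, 9.21 ± 0.98 in MF-fed and 9.65 ± 0.67 in C-fed mice. Pck1, for the enzyme that commits carbon to glucose production, was higher by 0.51 in CR over MF (adjusted p = 0.000586) and had 0.25 in CR over C (adjusted p = 0.0822), not called. Gabarapl1, for an autophagy protein, was lower in CR- than in C-fed mice, with -0.31 (adjusted p = 0.00267). Some genes that insulin is known to induce and some that FOXO factors are known to activate were thus called higher in the same CR-fed mice. Neither group was called higher throughout. All 11 tested insulin-induced genes had estimates above 0 in CR over MF (lowest 0.13) and in CR over C (lowest 0.07), but only 7 were called. Srebf1, of the insulin-induced genes, was called in no comparison (0.22 in CR over C, adjusted p = 0.501). Pnpla2, of the FOXO group, was lower in CR- than in C-fed mice (-0.44, adjusted p = 0.00102).

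Slc2a4 was set beside the other sugar transporters, of which 9 of 10 were tested. In INT over CR 1 was called, in CR over MF 1 and in CR over C 2. Slc2a5, for the fructose transporter GLUT5, averaged 7.69 ± 0.39 in INT-fed, 6.81 ± 0.50 in CR-fed, 7.55 ± 0.38 in MF-fed and 7.87 ± 0.19 in C-fed mice (SD), lower in CR-fed mice with -1.06 in CR over C (adjusted p = 0.000308). Slc2a13, for a myo-inositol transporter, was higher by 0.24 in CR over C (adjusted p = 0.0274). Slc2a4 was thus the transporter gene with the widest difference in each of these 3 comparisons.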

How the data were processed

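Liver RNA of 27 mice was hybridised to Affymetrix Mouse Gene 1.1 ST arrays, 100 ng per mouse, from RNA with an integrity number above 8.0. The deposited values are log2 intensities that the authors made by robust multiarray average (RMA), that is background correction, quantile normalization and a summary per probe set. Diets were taken from the sample labels. Of 35556 probe sets, 21218 named 1 gene by the platform annotation, 1881 named several and 12457 named none, and only the first were used. The methods describe probe sets rebuilt per Entrez gene, while the table used here holds those of the array's maker, so that the genes passing the intensity minimum may differ from the study's own. A gene with several probe sets (1386 genes) was represented by that of the highest mean. The members and lists were chosen with earlier results of these data known.

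Diets were compared with limma 3.58.1 under R 4.3.3 (its lmFit, contrasts.fit and eBayes functions, without trend or robust estimation) over all arrays, 2-sided, with Benjamini-Hochberg adjustment over 13603 genes. The code was tested on simulated data. Mice were housed singly from the start of the diet, but it is not stated whether mice of a diet came from separate litters. The p-values therefore measure the spread between these mice. Alternatives were other intensity minimums, median centring, cyclic loess, array weights, trended variances, other probe sets, blocks, subsets of arrays, each mouse left out, and the one-way test with Tukey's post-test that the methods name for other measures. The second probe set of Insr and Akt2 was added after the data had been seen. Named genes were the 9 members, up to 4 called genes of smallest adjusted p per list, and the 3 genes most like each called member, and marker genes were added to show the cells sampled. Tbc1d4, Srebf1 and Pnpla2 were named besides, as list genes that went another way or were not called. Summed marker levels are log2 of summed intensities. Likeness and promoter counts used Python 3.11.15 with pandas 2.3.3 and numpy 2.4.6, and figures matplotlib 3.10.9. Coordinates and promoters are from RefSeq on GRCm38.p6. Protein sequences were not used here.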

Additional observations from a re-analysis of the deposited data

Results flagged for a closer look

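In 8 of 36 sets of livers (9 genes in 4 diets) 1 liver lay far from the rest of its diet, by Dixon's criterion at the 95% level, which chance alone meets in about 1 set in 20. Of these values, 3 belonged to 1 INT-fed mouse, replicate 4: Irs2 was low at 6.91 (the next liver at 7.36), Pik3r1 was high at 10.35 (next 10.14) and Akt2 was low at 10.17 (next 10.31). Among MF-fed mice Irs2 was low at 7.03 in replicate 2, Akt1 at 8.76 in replicate 4 and Foxo1 at 8.63 in replicate 3. Among C-fed mice Foxo3 was low at 7.73 in replicate 7 and Slc2a4 was high at 5.74 in replicate 2. The last value still lay below the lowest CR-fed mouse, at 6.16. Leaving out any 1 of these mice ended no call of Slc2a4, Irs2 or Pik3r1, and leaving out MF replicate 3 or MF replicate 4 ended that of Irs1 in CR over MF.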

How the results depend on the processing

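Slc2a4 was called in INT over CR, CR over MF and CR over C under every alternative. Leaving out each mouse kept the members called at 3 in INT over CR, at 3 to 4 in CR over MF and CR over C, and at 0 in the other comparisons. Within replicates 5 to 7, with 2 CR-fed mice, 1 member was called in each comparison with CR, and signs turned for Irs1 in INT over CR (0.0587), Insr (0.0445) and Akt2 (0.0145) in CR over C and Slc2a4 in MF over C (0.12), none called. Leave-one-out values of Akt1 ran from -0.0071 to 0.0561 in INT over CR and from -0.0183 to 0.0583 in CR over MF, crossing 0. Irs2 lost its call under the methods' Tukey test in INT over CR (adjusted p = 0.0548) and CR over C (0.103), and in CR over C with only these 2 diets (0.0557). Irs1 in CR over MF was lost under the Tukey test (0.215). Irs1 in CR over C gained a call under array weights (0.026), with only these 2 diets (0.039), and without C replicate 3, MF replicate 3 or CR replicate 5 (0.0394, 0.0319 and 0.0351). The r of Irs1 without its 2 farthest livers was 0.0854 with Foxo3 and 0.206 with Foxo1. Without the 2 livers farthest for Foxo3 its r was 0.114 with Foxo1 and -0.0024 with Irs1, and without the 2 farthest for Foxo1 the r of Irs1 and Foxo1 was 0.318. The cause of these changes was not tested.

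The replicate numbers are not known to pair mice across diets. Deviations of same-numbered arrays correlated at -0.25 to 0.30, with a mean per number from -0.05 (replicate 3) to 0.18 (replicate 6). These values cannot show whether the mice were paired. With the replicate number as a block, Irs1 in CR over MF was 0.47 (adjusted p = 0.0571) and lost its call, so that 3 members were called there, and 3 in INT over CR and 3 in CR over C. All genes called with the block numbered 2079 in INT over CR, 2654 in CR over MF and 2410 in CR over C, against 2039, 2690 and 2382 without it.

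Counts over all genes moved more. Within replicates 1 to 4 they were 1038 in INT over CR, 1226 in CR over C and 1 in MF over C. Within replicates 5 to 7 they were 347 in INT over CR, 331 in CR over MF and 497 in CR over C, and under the Tukey test 1055, 1455 and 1231. In INT over MF 3 genes were called with array weights, and 29, 2 and 1 without MF replicate 6, C replicate 5 or C replicate 7, against 0 with all mice.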
